A study of Mus musculus with 6 samples.

Results

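The basophil and mast cell genes are 8 genes of the deposited count table: Prss34, Mcpt8, Fcer1a, Cpa3, Ms4a2, Hdc, Gata2 and Kit. They were taken by gene symbol, and all 8 were found among 24956 gene rows. The libraries were made from bulk RNA of microglia, the macrophages that live in brain tissue, which had been sorted by fluorescence from 3XTg-AD mice, a transgenic model of Alzheimer's disease. The labels name no marker or gate for the sort. Mice of both groups were 7 months old. The anti-NK1.1 group (3 libraries) received 25 µg of an antibody that depletes natural killer (NK) cells through their surface receptor NK1.1, and the isotype group (3 libraries) received 25 µg of an isotype control antibody, each given every 4 days for 4 weeks. Whether each library stands for a single animal or pooled animals is not in the labels, so the spread between libraries may in part be technical.

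Basophils are rare blood granulocytes, and mast cells are their tissue-resident counterparts. Both carry the high-affinity receptor for immunoglobulin E (IgE), through which antigen releases histamine, proteases and lipid mediators from the cell. The brain holds few of either, with mast cells known mainly from the meninges, so in a microglial sort their transcripts come from a small part of the RNA at most. The members fall into granule proteases (Prss34, Mcpt8, Cpa3), the histamine-forming enzyme (Hdc), chains of the IgE receptor (Fcer1a, Ms4a2), and a lineage transcription factor and a growth factor receptor (Gata2, Kit).

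The sequences upstream of the 3 granule protease genes are shown because their profiles across libraries were among the most similar of the members and because Gata2, a factor that binds GATA motifs, is itself a member. Each run is the 250 bases before the RefSeq start (GRCm38.p6), read 5′ to 3′ along the gene's strand. The windows are chr17:25298144-25298393 on the plus strand for Prss34, chr14:56085198-56085447 on the minus strand for Mcpt8 and chr3:20242182-20242431 on the minus strand for Cpa3. Capitals mark matches, on either strand, to 4 forms of the GATA motif. They are AGATAA, its variant with a last G, written AGATAG, and the same pair opening with a T, of which the first is TGATAA and the other is TGATAG.
Prss34: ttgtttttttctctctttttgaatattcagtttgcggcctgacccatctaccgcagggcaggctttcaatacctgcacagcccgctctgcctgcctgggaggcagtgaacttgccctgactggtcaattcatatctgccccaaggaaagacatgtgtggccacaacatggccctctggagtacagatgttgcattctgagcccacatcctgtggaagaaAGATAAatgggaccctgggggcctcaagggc
Mcpt8: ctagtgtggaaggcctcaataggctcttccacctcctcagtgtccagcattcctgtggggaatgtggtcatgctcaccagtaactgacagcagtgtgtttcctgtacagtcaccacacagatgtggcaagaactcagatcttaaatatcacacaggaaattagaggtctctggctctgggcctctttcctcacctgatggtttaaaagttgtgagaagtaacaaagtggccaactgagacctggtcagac
Cpa3: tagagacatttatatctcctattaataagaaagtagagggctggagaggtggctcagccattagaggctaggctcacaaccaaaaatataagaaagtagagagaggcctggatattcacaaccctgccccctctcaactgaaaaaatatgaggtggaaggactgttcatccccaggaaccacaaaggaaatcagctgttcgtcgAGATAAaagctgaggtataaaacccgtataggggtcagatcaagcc

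Prss34 and Cpa3 each held 1 match, to AGATAA on the gene's own strand, starting 31 bases before the start in Prss34 and 46 bases before it in Cpa3. The Mcpt8 window held none of these letters. All 8 members had a promoter entry, with 10 windows in total since Kit and Gata2 have 2 starts each, and any of the 4 forms on either strand was found in 5 of the 10 windows. AGATAA alone, a form singled out after the matches were seen, was found in 4 of them, those of Prss34, Cpa3, Fcer1a and Ms4a2. Ms4a2 held 3 matches, the nearest starting 11 bases before the start, and Fcer1a held 1, starting 92 bases before it. Hdc held 1 match to TGATAG, starting 221 bases before the start. Across all 32817 promoter windows of this length, any of the 4 forms was found in 26.6% and AGATAA in 9.99%. A match is a string of letters and was not tied to binding in these data.

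Gene counts totalled 26.9 M to 31.4 M in the anti-NK1.1 libraries and 31.9 M to 36.1 M in the isotype libraries, and levels are given as CPM, counts scaled to library size with the trimmed mean of M values (TMM) factors of edgeR. A limit of 3 counts in a library corresponds to 0.0831 to 0.112 CPM without that scaling. The 10 microglia markers summed to 30928 to 38136 CPM in the anti-NK1.1 libraries and 33450 to 37594 CPM in the isotype libraries, so the labelled cell type was present in all 6. Long transcripts were not equally represented: the rank correlation across 14391 genes between exon length and the deviation of log2 CPM from the gene's mean was -0.15, 0.21 and -0.29 in anti-NK1.1 libraries 1 to 3, and 0.01, 0.02 and 0.29 in isotype libraries 1 to 3. Over 14520 genes that passed the low-count filter, 0 genes (0%) had an adjusted p under 0.05 by the quasi-likelihood test of edgeR. Unadjusted, 950 genes had a p under 0.05, and DESeq2 called 83 genes (0.572%).

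Of the 8 members, 7 passed the filter and 1, Ms4a2, did not. The members were chosen on their counts per library in this same contrast, so their differences are described without a test. All 7 that passed had a log2 change below 0 (anti-NK1.1 against isotype), while 49.1% of all tested genes did. For Prss34 and Cpa3 the highest anti-NK1.1 library lay below the lowest isotype library, which held for 7.59% of the tested genes. In a bulk sample, fewer basophils or mast cells and less RNA per cell cannot be told apart.

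Marker lists of other cell types differed between the groups as well, and their part in the member values was not tested. The 10 NK cell genes summed to 42.6, 45.2 and 76.8 CPM in anti-NK1.1 libraries 1 to 3 and 125, 135 and 91.9 CPM in isotype libraries 1 to 3, with 7 of 9 tested genes below 0 in log2 change. Klrb1c, Gzma and Klrd1 lay lower without overlap. Nkg7 and Klrd1 made up most of the NK cell sum. Nkg7 was at 13.1, 19.4 and 51.2 CPM in the anti-NK1.1 libraries and 66.6, 75.7 and 50.0 CPM in the isotype libraries, so its groups overlapped. The 6 monocyte genes summed to 1339, 1776 and 5452 CPM in the anti-NK1.1 libraries and 4749, 4176 and 4306 CPM in the isotype libraries, with 5 of 6 below 0 (all but Plac8) and 3 of them (Ccr2, F13a1 and Fn1) lower without overlap. Chil3 was the largest part of that sum, at 867, 1236 and 4085 CPM in the anti-NK1.1 libraries and 3345, 3045 and 2979 CPM in the isotype libraries. In anti-NK1.1 library 3, where the sum was highest, Ccr2 was at 37.4 CPM against 84.6 to 162 CPM in the isotype libraries. In the other direction, the 7 neuron genes summed to 563, 177 and 312 CPM in the anti-NK1.1 libraries and 78.4, 37.8 and 137 CPM in the isotype libraries. All 7 were above 0, 2 of them higher without overlap. The T cell genes summed to 36.3, 31.1 and 33.9 CPM in the anti-NK1.1 libraries and 10.2, 19.1 and 14.3 CPM in the isotype libraries. All 6 were above 0, 4 of them higher without overlap. Over all 14520 tested genes, 7126 were below 0 and 7394 above. Without overlap, 7.59% of them lay lower and 7.73% higher. None of these 4 lists held a gene with no count in all libraries. EdgeR called none of their genes, as it called none over all genes.

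Prss34, which encodes the granule serine protease mMCP-11 of mouse basophils (chromosome 17, 25298394 to 25300165, GRCm38), had 1220, 766 and 1948 counts in anti-NK1.1 libraries 1 to 3 and 3915, 3710 and 4499 counts in isotype libraries 1 to 3. Scaled, these were 45.9, 22.4 and 77.6 CPM in the anti-NK1.1 libraries and 109, 115 and 118 CPM in the isotype libraries. The isotype libraries lay close together and the anti-NK1.1 libraries were spread below them, with library 2 lowest. The anti-NK1.1 mean was 48.6 ± 27.7 CPM and the isotype mean 114 ± 4.27 CPM (SD, n = 3 each), which is 0.427 times the isotype level and an edgeR log2 change of -1.23. Of all tested genes, 5.74% had a lower log2 change.

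Cpa3, which encodes the granule carboxypeptidase shared by mast cells and basophils (chromosome 3, 20215620 to 20242181), had 93, 98 and 94 counts in the anti-NK1.1 libraries and 291, 355 and 335 counts in the isotype libraries. The scaled levels were 3.50, 2.86 and 3.75 CPM in the anti-NK1.1 libraries and 8.12, 11.0 and 8.75 CPM in the isotype libraries. The groups did not overlap, and Cpa3 had the smallest spread within groups on the log2 scale of the 8 members. The anti-NK1.1 mean was 3.37 ± 0.456 CPM and the isotype mean 9.29 ± 1.52 CPM (SD, n = 3 each), a log2 change of -1.46, with 3.62% of tested genes lower. Leaving out any single library kept the value between -1.55 and -1.32.

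Mcpt8, a granule serine protease used as a marker of mouse basophils (chromosome 14, 56082166 to 56085273), had 616, 592 and 1021 counts in the anti-NK1.1 libraries and 1599, 1655 and 1322 counts in the isotype libraries. The levels were 23.2, 17.3 and 40.7 CPM in the anti-NK1.1 libraries and 44.6, 51.3 and 34.5 CPM in the isotype libraries. Anti-NK1.1 library 3 lay above isotype library 3, so the groups overlapped, although with library totals alone in place of TMM factors the members below every isotype library numbered 3, Mcpt8 among them (7.30% of tested genes did so there). The means were 27.1 ± 12.2 CPM in the anti-NK1.1 group and 43.5 ± 8.44 CPM in the isotype group (SD, n = 3 each), a log2 change of -0.69. It was -1.11 without anti-NK1.1 library 3 and -0.45 without anti-NK1.1 library 2.

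**Figure D1:**
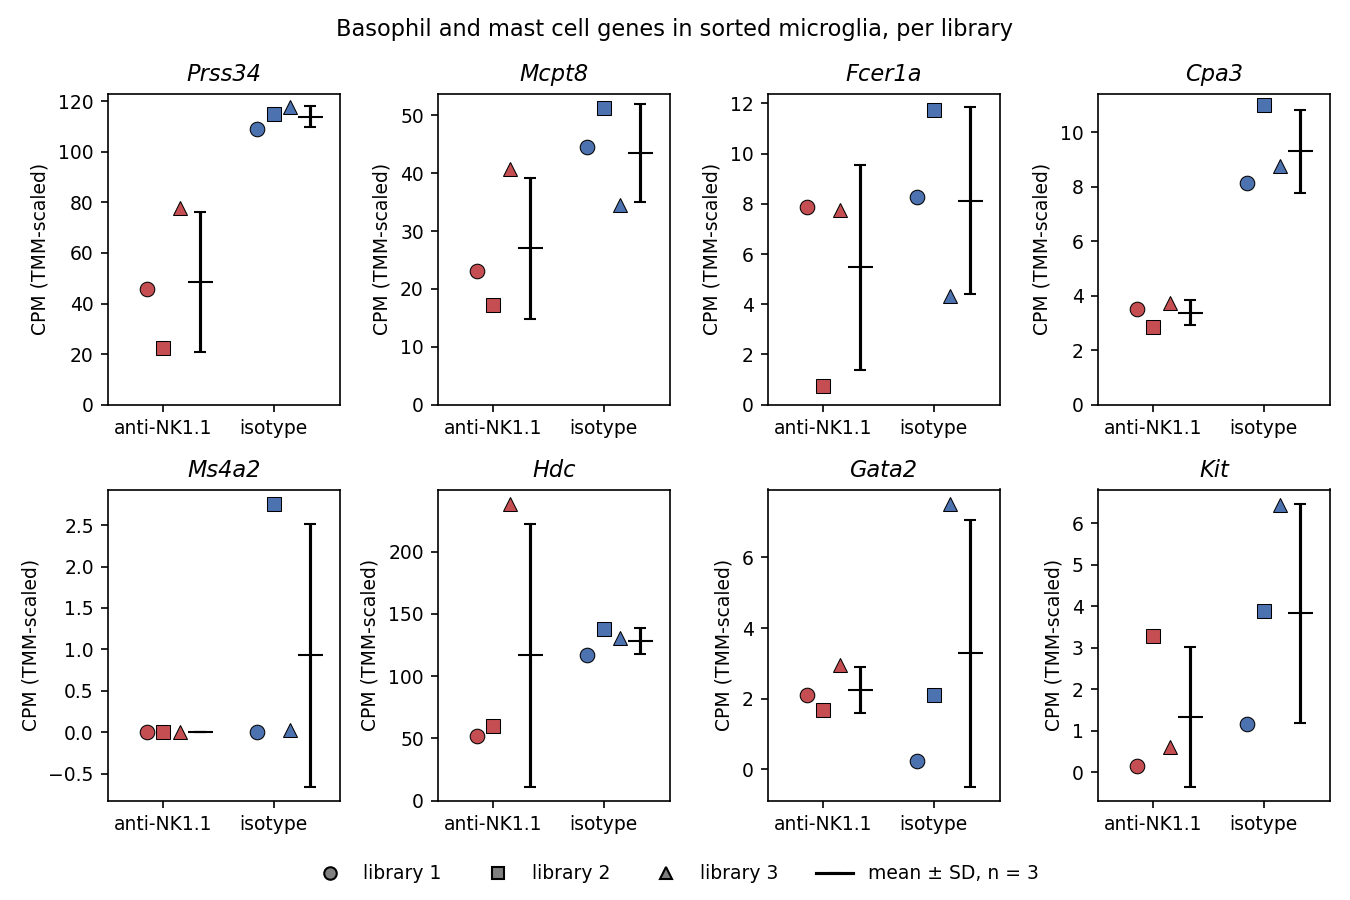
TMM-scaled CPM (vertical axes, linear) of the 8 members in each library, with anti-NK1.1 in red at the left and isotype in blue at the right of each panel; markers give the library number and bars the mean ± SD (n = 3). Prss34 (22.4 to 77.6 against 109 to 118 CPM) and Cpa3 (2.86 to 3.75 against 8.12 to 11.0 CPM) separate the groups, and Hdc in anti-NK1.1 library 3 (238 CPM) stands above all other libraries.

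The proportions between the proteases, a comparison chosen after the values were seen, also varied. Counts of Prss34 were 1.98, 1.29 and 1.91 times those of Mcpt8 in anti-NK1.1 libraries 1 to 3, and 2.45, 2.24 and 3.40 times in isotype libraries 1 to 3. All anti-NK1.1 libraries had a lower ratio than all isotype libraries. Counts of Mcpt8 were 6.62, 6.04 and 10.9 times those of Cpa3 in the anti-NK1.1 libraries and 5.49, 4.66 and 3.95 times in the isotype libraries, again without overlap. Counts of Prss34 were 13.1, 7.82 and 20.7 times those of Cpa3 in the anti-NK1.1 libraries and 13.5, 10.5 and 13.4 times in the isotype libraries, and here the groups overlapped. These ratios were not tested.

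Hdc, histidine decarboxylase, is the enzyme that makes histamine (chromosome 2, 126593667 to 126619299). It is also expressed by neutrophils and other myeloid cells. Hdc had 1379, 2053 and 5983 counts in the anti-NK1.1 libraries and 4193, 4433 and 5012 counts in the isotype libraries. The levels were 51.9, 60.0 and 238 CPM in the anti-NK1.1 libraries and 117, 137 and 131 CPM in the isotype libraries. Anti-NK1.1 libraries 1 and 2 lay below all isotype libraries and library 3 above all of them. The means were 117 ± 105 CPM in the anti-NK1.1 group and 128 ± 10.5 CPM in the isotype group (SD, n = 3 each), a log2 change of -0.14 that was -1.20 without anti-NK1.1 library 3. The direction reversed without anti-NK1.1 library 1 (0.21) or 2 (0.18), so a single library set the value.

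The sum of the late neutrophil genes was, like Hdc, highest in anti-NK1.1 library 3 and lowest in anti-NK1.1 libraries 1 and 2. The 12 late neutrophil genes summed to 33044, 33398 and 141901 CPM in anti-NK1.1 libraries 1 to 3, and to 101570, 79668 and 74544 CPM in isotype libraries 1 to 3. Among the isotype libraries the sum was highest in library 1, where Hdc was lowest. Not every gene followed the sum. Csf3r was at 213 CPM in anti-NK1.1 library 3, its lowest value in any library. Cxcr2, Mmp8, Mmp9 and Ltf were highest in isotype library 3. Cxcr2 and Csf3r lay lower in the anti-NK1.1 group without overlap, as 7.59% of tested genes did. All 12 genes had a log2 change below 0, as 49.1% of tested genes did. Per 1000 CPM of the 12 genes summed, a scale chosen after the values were seen, Hdc was at 1.57, 1.80 and 1.68 CPM in the anti-NK1.1 libraries and 1.15, 1.73 and 1.76 CPM in the isotype libraries, a range in which the groups overlapped. On the same basis Prss34 was at 1.39, 0.670 and 0.547 CPM in the anti-NK1.1 libraries and 1.08, 1.44 and 1.58 CPM in the isotype libraries, so its groups overlapped too. Mcpt8 and Cpa3 also overlapped on this scale. For all of these proteases anti-NK1.1 library 1 lay above isotype library 1. The part of neutrophils in the Hdc values was not tested.

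Summed, the azurophil granule genes of neutrophil precursors ordered the libraries nearly as the summed proteases did. These 5 azurophil genes (Mpo, Elane, Prtn3, Ctsg, Ms4a3) summed to 40.6, 530 and 1259 CPM in anti-NK1.1 libraries 1 to 3 and to 1986, 2307 and 1660 CPM in isotype libraries 1 to 3. The sum of Prss34, Mcpt8 and Cpa3, also chosen after the values were seen, was 72.6, 42.5 and 122 CPM in anti-NK1.1 libraries 1 to 3, and 162, 177 and 161 CPM in isotype libraries 1 to 3. Prss34 was the largest part of that protease sum in every library, and Mcpt8 by itself overlapped between groups. In both sums every anti-NK1.1 library lay below every isotype library, anti-NK1.1 library 3 was the highest of its group, and isotype library 2 was the highest of all. They differed in order only for anti-NK1.1 libraries 1 and 2, of which library 1 was lower for the azurophil genes and library 2 for the proteases. Gene by gene, only Mpo and Ctsg of the 5 azurophil genes lay lower without overlap, as 7.59% of tested genes did. Elane, Prtn3 and Ms4a3 overlapped, each being higher in anti-NK1.1 library 3 than in isotype library 3. EdgeR called none of the 17 late and precursor neutrophil genes, as it called none over all genes. The part of granulocyte content in the protease values was not tested.

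**Figure D2:**
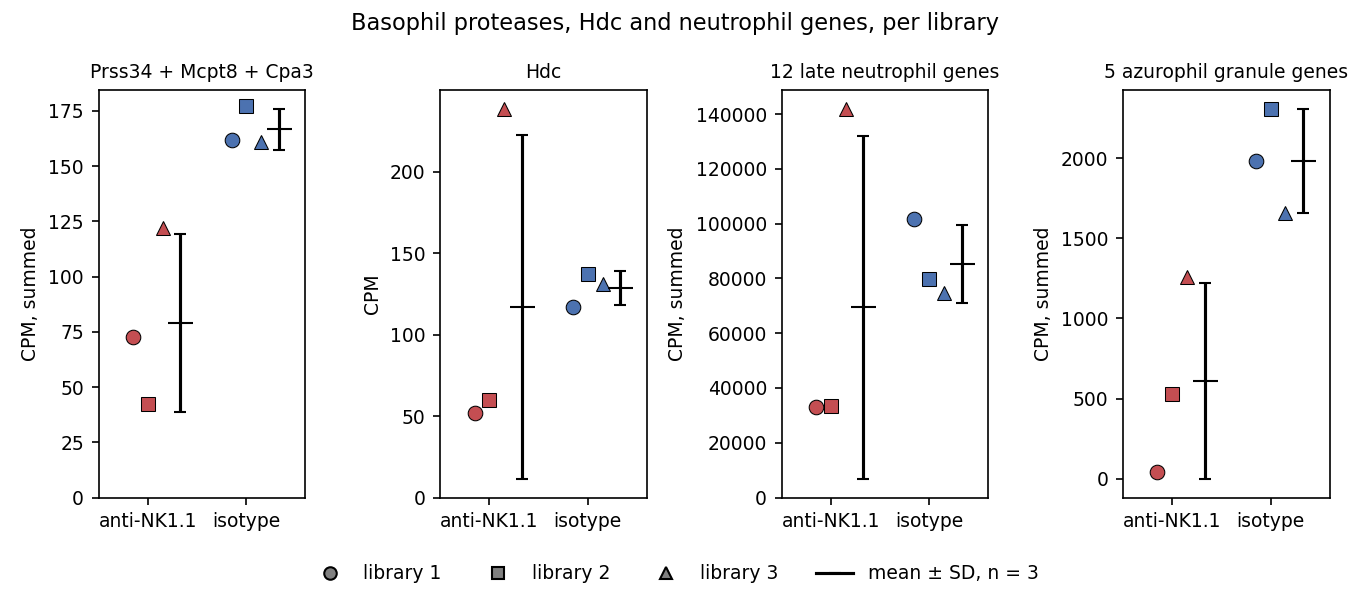
Summed CPM of Prss34, Mcpt8 and Cpa3, CPM of Hdc, and summed CPM of 12 late neutrophil and 5 azurophil granule genes, with anti-NK1.1 in red at the left and isotype in blue at the right; markers give the library number and bars the mean ± SD (n = 3). Anti-NK1.1 library 3 is highest of all 6 for Hdc (238 CPM) and for the late neutrophil genes (141901 CPM), while its protease sum (122 CPM) and its azurophil granule sum (1259 CPM) lie below all isotype libraries.

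Fcer1a encodes the alpha chain of the IgE receptor, which binds the antibody (chromosome 1, 173221284 to 173227214). It had 209, 26 and 195 counts in the anti-NK1.1 libraries and 297, 379 and 165 counts in the isotype libraries. The levels were 7.86, 0.759 and 7.77 CPM in the anti-NK1.1 libraries and 8.29, 11.8 and 4.31 CPM in the isotype libraries. Only anti-NK1.1 library 2 lay outside the isotype range, so the groups overlapped. The means were 5.46 ± 4.07 CPM in the anti-NK1.1 group and 8.12 ± 3.72 CPM in the isotype group (SD, n = 3 each), a log2 change of -0.57. It was -0.06 without anti-NK1.1 library 2 and -0.21 without isotype library 2.

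Ms4a2, the beta chain that amplifies the signal of the receptor (chromosome 19, 11615523 to 11623719), had 0 counts in each of the 3 anti-NK1.1 libraries and 0, 89 and 1 counts in isotype libraries 1 to 3. Against 3 counts over the anti-NK1.1 group, it was at least 24.2-fold lower there. That bound rests on isotype library 2, since the other 2 isotype libraries held 1 count between them. Fcer1g, the gamma chain that microglia also express with other Fc receptors, was abundant in every library and averaged 2798 ± 967 CPM in the anti-NK1.1 group and 2147 ± 239 CPM in the isotype group (SD, n = 3 each).

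Gata2, a transcription factor required for basophil and mast cell development and also active in blood progenitors (chromosome 6, 88193891 to 88207032), had 56, 58 and 74 counts in the anti-NK1.1 libraries and 9, 68 and 288 counts in the isotype libraries. The levels were 2.11, 1.69 and 2.95 CPM in the anti-NK1.1 libraries and 0.251, 2.11 and 7.52 CPM in the isotype libraries. The anti-NK1.1 values all lay inside the isotype range. The means were 2.25 ± 0.640 CPM in the anti-NK1.1 group and 3.29 ± 3.78 CPM in the isotype group (SD, n = 3 each). The log2 change of -0.55 turned to 0.93 without isotype library 3 and was -1.09 without isotype library 1.

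Kit, the receptor for stem cell factor on which mast cells depend (chromosome 5, 75574916 to 75656722), had 4, 112 and 15 counts in the anti-NK1.1 libraries and 42, 125 and 247 counts in the isotype libraries. The levels were 0.150, 3.27 and 0.598 CPM in the anti-NK1.1 libraries and 1.17, 3.88 and 6.45 CPM in the isotype libraries. Anti-NK1.1 libraries 1 and 3 lay below every isotype library and library 2 within their range. Libraries 1 and 3 were also the libraries poorest in long transcripts, and Kit has the longest exon sequence of the members, 8911 bases. The means were 1.34 ± 1.69 CPM in the anti-NK1.1 group and 3.83 ± 2.64 CPM in the isotype group (SD, n = 3 each), a log2 change of -1.51 that was -1.40 after correction for exon length. It was -3.35 without anti-NK1.1 library 2, -0.98 without anti-NK1.1 library 1 and -0.91 without isotype library 3. Without anti-NK1.1 libraries 1 and 3 together it was -0.23, resting on anti-NK1.1 library 2 alone.

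**Figure D3:**
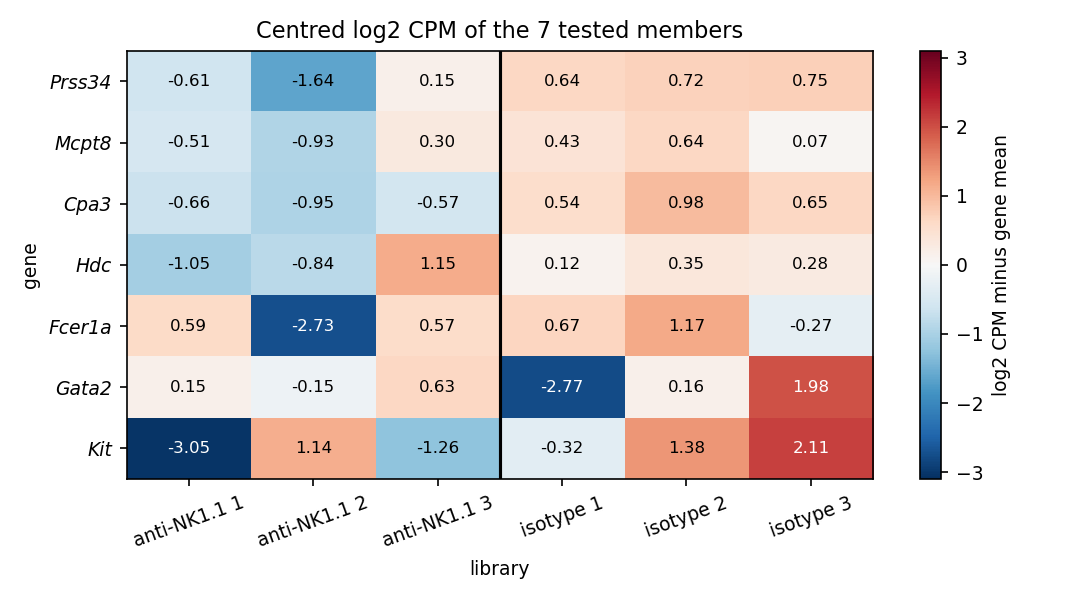
Heat map of log2 CPM (prior count of 1) minus the gene's mean over the 6 libraries, for the 7 members that passed the filter; red is above and blue below the gene's mean, with anti-NK1.1 libraries left of the line and isotype libraries right of it. Prss34, Mcpt8, Cpa3 and Hdc are below their mean in anti-NK1.1 libraries 1 and 2 and above it in the isotype libraries. In anti-NK1.1 library 3 only Cpa3 among these is below its mean (-0.57). Fcer1a is lowest in anti-NK1.1 library 2 (-2.73), Gata2 in isotype library 1 (-2.77) and Kit in anti-NK1.1 library 1 (-3.05).

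The likeness of 2 profiles was measured as the root mean square difference of these centred log2 values over the 6 libraries. Prss34 and Mcpt8 differed by 0.42, Prss34 and Cpa3 by 0.43 and Mcpt8 and Cpa3 by 0.46. Hdc differed from Mcpt8 by 0.46 as well, but from Prss34 by 0.64 and from Cpa3 by 0.80. From the mean profile of the 7 tested members, Prss34, Mcpt8, Cpa3 and Hdc differed by 0.39 to 0.52, Gata2 differed by 1.32, Fcer1a lay between those, and Kit was farthest. Outside the members, the 5 tested genes nearest to the members' mean profile were Nabp1 (0.20), Kif13a (0.22), Cmpk2 (0.22), Rabl3 (0.22) and Pde2a (0.22). With 6 libraries and 14520 genes this ranking is a description only.

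Per kilobase of exon, the order of the members by group mean was the same in both groups. In the anti-NK1.1 libraries Prss34 averaged 39.9 ± 22.7 CPM per kilobase, Mcpt8 27.1 ± 12.2, Hdc 18.3 ± 16.5, Fcer1a 5.48 ± 4.08, Cpa3 2.22 ± 0.301, Gata2 0.417 ± 0.119 and Kit 0.150 ± 0.189 (SD, n = 3), and Ms4a2 had no count. Each of Prss34, Mcpt8, Fcer1a and Gata2 overlapped there with the next in the order, whereas Hdc did not overlap with Fcer1a, nor Cpa3 with Gata2. In the isotype libraries Prss34 averaged 93.4 ± 3.50 CPM per kilobase, Mcpt8 43.6 ± 8.46, Hdc 20.1 ± 1.64, Fcer1a 8.13 ± 3.73, Cpa3 6.13 ± 1.00, Gata2 0.610 ± 0.700, Kit 0.430 ± 0.296 and Ms4a2 0.330 ± 0.564 (SD, n = 3). In the isotype libraries Prss34, Mcpt8 and Hdc each lay above the next in the order without overlap. Fcer1a there overlapped with Cpa3, which lay above Gata2, and Gata2, Kit and Ms4a2 overlapped with each other.

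Over all 8 members the summed level was 135, 108 and 372 CPM in anti-NK1.1 libraries 1 to 3 and 289, 335 and 310 CPM in isotype libraries 1 to 3, with anti-NK1.1 library 3 highest through Hdc. The log2 ratio of the group means was -0.60 with all libraries and -1.36 without anti-NK1.1 library 3. Without Hdc, a choice made after the values were seen, the sum was 82.7, 48.2 and 133 CPM in the anti-NK1.1 libraries and 172, 198 and 179 CPM in the isotype libraries. Those groups did not overlap, with means of 88.1 ± 42.8 CPM in the anti-NK1.1 group and 183 ± 13.5 CPM in the isotype group (SD, n = 3 each) and a ratio of 0.482. Prss34 alone gave 48.6 CPM of the anti-NK1.1 mean and 114 CPM of the isotype mean. Singly, Mcpt8, Fcer1a, Gata2 and Kit overlapped between groups.

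**Figure D4:**
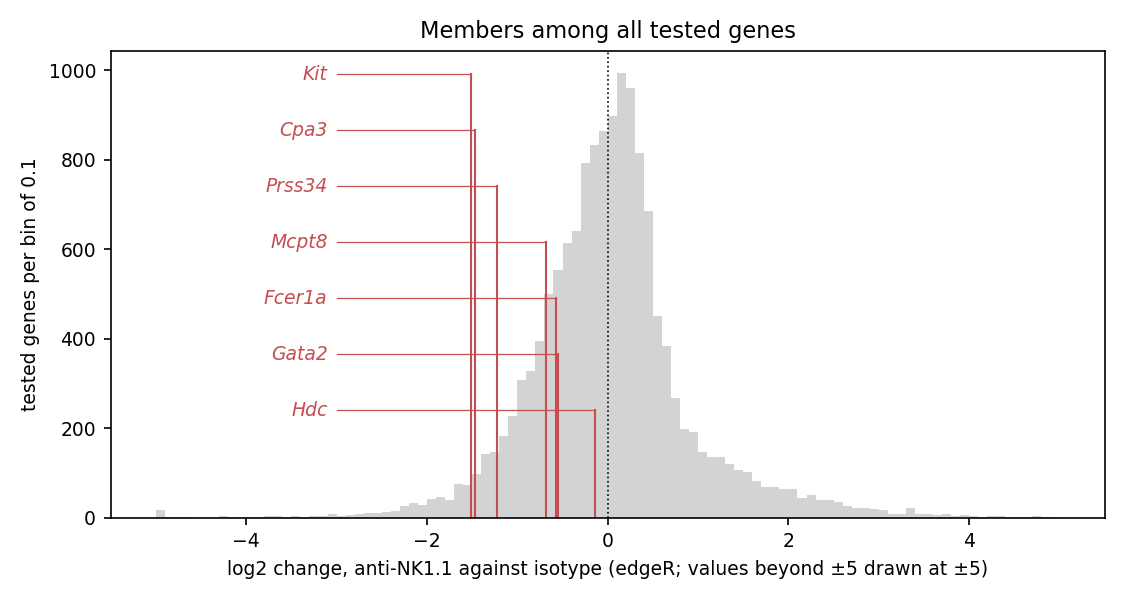
Histogram of the edgeR log2 change (anti-NK1.1 against isotype, horizontal axis) of 14520 tested genes in bins of 0.1, with a red line at each of the 7 tested members. The members lie between -1.51 (Kit) and -0.14 (Hdc), inside the spread of all tested genes.

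Among other genes of basophils and mast cells several were sparse. EdgeR called none of them, as it called none over all genes. Of 13 further basophil genes, 8 were tested, 7 with a log2 change below 0 and 1 above, with a median of -0.66 against 0.01 over all tested genes. That median was -1.23 without isotype library 3. Csf2rb, the common beta chain of the interleukin-3 receptor family that microglia also express, averaged 63.8 ± 19.4 CPM in the anti-NK1.1 group and 87.7 ± 17.1 CPM in the isotype group (SD, n = 3 each), a log2 change of -0.46 ± 0.29 (SE). Il1rl1, the interleukin-33 receptor, had 5, 84 and 0 counts in the anti-NK1.1 libraries and 250, 29 and 88 counts in the isotype libraries. Cd200r3, an activating receptor of basophils and mast cells, had 7, 0 and 50 counts in the anti-NK1.1 libraries and 107, 35 and 0 counts in the isotype libraries. Both genes overlapped between groups. Csf2rb2, the mouse paralog of Csf2rb with which it may share reads, averaged 14.3 ± 7.07 CPM in the anti-NK1.1 group and 19.6 ± 7.91 CPM in the isotype group (SD, n = 3 each), a log2 change of -0.46 ± 0.52 (SE). Il3ra, the gene with a log2 change above 0 (0.09), averaged 14.9 CPM in the anti-NK1.1 group and 14.0 CPM in the isotype group. Ifitm1 averaged 70.8 CPM in the anti-NK1.1 group and 71.7 CPM in the isotype group, a log2 change of -0.02. Both overlapped between groups.

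Genes of tissue mast cell granules were at or near 0. Of 15, 7 had no count in any library, among them the tryptase Tpsab1 and the mast cell receptor Mrgprb2. Leaving aside Ctsg and Gzmb, which neutrophil precursors and cytotoxic lymphocytes also express (a choice made after the values were seen), the list summed to 3.09, 1.78 and 0.359 CPM in the anti-NK1.1 libraries and 10.0, 5.21 and 0.235 CPM in the isotype libraries. The chymase Mcpt4 had 0, 20 and 8 counts in the anti-NK1.1 libraries and 125, 22 and 2 counts in the isotype libraries. The tryptase Tpsb2 had 1, 0 and 0 counts in the anti-NK1.1 libraries and 57, 48 and 0 counts in the isotype libraries. All 5 tested genes of the list, Ctsg and Gzmb included, had a log2 change below 0 (49.1% over all tested genes). Their median was -1.46, the value of Gzmb, and it was -2.82 without anti-NK1.1 library 3 and -0.44 without isotype library 1. Apart from Ctsg and Gzmb, the tested genes were Mcpt4 (-2.20), Cma1 (-1.16) and Tpsg1 (-0.37), all at low counts. Ctsg, at 29.3 ± 33.7 CPM in the anti-NK1.1 group and 113 ± 40.2 CPM in the isotype group (SD, n = 3 each), was the only tested gene of the list whose groups did not overlap. Gzmb, also a gene of cytotoxic cells, had 0, 0 and 91 counts in the anti-NK1.1 libraries and 85, 97 and 175 counts in the isotype libraries.

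Of the signalling genes below the IgE receptor, which microglia also use, edgeR called none, as it called none over all genes. Of 17 tested, 11 had a log2 change below 0 and 6 above, with a median of -0.39 (-0.26 without anti-NK1.1 library 3), and 4 (Lcp2, Plcg1, Plcg2 and Vav1) lay lower without overlap, as 7.59% of all tested genes did. Plcg2, a phospholipase downstream of immune receptors, averaged 81.6 ± 21.2 CPM in the anti-NK1.1 group and 131 ± 27.6 CPM in the isotype group (SD, n = 3 each), a log2 change of -0.69 ± 0.27 (SE, edgeR adjusted p = 0.727). The related Plcg1 had a log2 change of -1.66 ± 0.72 (SE). The kinase Lyn, which phosphorylates the receptor chains, had -0.63 ± 0.28 (SE). Lyn was at 485 CPM in anti-NK1.1 library 2, inside the isotype range of 479 to 567 CPM, and at 235 and 287 CPM in libraries 1 and 3.

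Of 11 tested mediator genes, edgeR called none, as it called none over all genes. In this list 5 had a log2 change above 0 and 6 below (49.1% of all tested genes were below 0), with a median of -0.27. That median was -0.16 without anti-NK1.1 library 1, -0.10 without isotype library 2 and -0.03 without isotype library 3. Ptgs2, an inducible enzyme of prostaglandin synthesis, averaged 24.1 ± 12.2 CPM in the anti-NK1.1 group and 49.3 ± 17.1 CPM in the isotype group (SD, n = 3 each), a log2 change of -1.03 ± 0.43 (SE, edgeR adjusted p = 0.743). Alox5 and Ptgs1, which start leukotriene and prostaglandin synthesis, had log2 changes of -0.35 ± 0.25 and -0.27 ± 0.22 (SE).

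In the growth factor list, 9 of 11 tested genes had a log2 change below 0 and 2 above (49.1% of all tested genes were below 0). The median was -0.46, and it was -0.80 without anti-NK1.1 library 2 and -0.29 without isotype library 3. Jak2, the kinase of the interleukin-3 receptor among others, was at 5.46, 6.51 and 2.75 CPM in the anti-NK1.1 libraries and 19.7, 15.5 and 29.6 CPM in the isotype libraries. Its log2 change was -2.14 ± 0.50 (SE, edgeR adjusted p = 0.714), and DESeq2 called it (adjusted p = 0.0162), alone among the 64 tested genes of these related lists. Interleukin-3 itself, Il3, had no count in any library.

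Of 16 lineage transcription factors, 8 had a log2 change above 0 and 8 below, with a median of -0.01 (-0.14 to 0.01 with any single library left out). Cebpa, a factor of granulocyte and microglial lineages, averaged 91.0 ± 14.5 CPM in the anti-NK1.1 group and 56.4 ± 13.8 CPM in the isotype group (SD, n = 3 each), and every anti-NK1.1 library lay above every isotype library, which held for 7.73% of tested genes. Its log2 change was 0.69 ± 0.27 (SE, edgeR adjusted p = 0.727). Cebpb, a related factor, had 0.88 ± 0.42 and Fli1 had -0.54 ± 0.27 (SE). Gata1, the erythroid and mast cell partner of Gata2, had 0, 103 and 32 counts in the anti-NK1.1 libraries and 83, 46 and 0 counts in the isotype libraries.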

How the data were processed

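RNA from sorted microglia was sequenced in 3 anti-NK1.1 and 3 isotype libraries as 75 bp single-end reads, from SMART-seq v4 cDNA and Nextera XT libraries, per the labels' protocols. The submitters' processing notes name STAR 2.5.3a, Cufflinks 2.0, DESeq2 1.1, bcl2fastq 2.20.0.422 and FastQC 1.0.0, and the build mm10. No source used here gives the counting program, annotation or strand setting. The deposited table is named as normalized, but its values are whole-number counts per gene with different totals per library. Left out were 26 rows with a calendar date in place of the symbol and a value, and 2 rows of reads outside genes, and reads in no feature made up 53.3% to 57.4% of a library. No molecular identifiers were used, so counting limits cover counting error only, and no exon of a member overlaps an exon of another gene in GENCODE M21.

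Genes were filtered with filterByExpr (14520 of 24956 kept), scaled with TMM and fitted by group alone in edgeR 4.0.16 (R 4.3.3), whose quasi-likelihood F-test (two-sided) was adjusted by Benjamini-Hochberg, threshold 0.05. SE is the absolute log2 change divided by the square root of F. The test was checked on simulated counts with known changes and missed most of the smaller ones. An absence of calls therefore does not show an absence of change. DESeq2 1.42.0, other scaling, filters, a replicate block, a length correction and leaving out libraries were the alternatives.

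The members and lists were chosen with earlier results of these data known. Named are all members, at most 3 genes per related list by smallest p, and the 5 genes nearest in pattern, leaving out predicted loci. Cd200r3, Fcer1g, Tpsab1, Tpsb2, Mrgprb2, Il3, Gata1, Lcp2, Vav1, Ccr2, F13a1, Fn1 and the eosinophil genes were named after their values were seen. So were Csf3r, Cxcr2, Mmp8, Mmp9, Ltf, Chil3, Plac8, Il3ra, Ifitm1, Cma1, Tpsg1, Nkg7, Klrb1c, Gzma and Klrd1. Lengths are exon unions of GENCODE M21 (GRCm38), known for 99.1% of tested genes. All replicate pairs within a group differed by more than sampling noise.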

Additional observations from a re-analysis of the deposited data

How the results depend on the processing

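Prss34, Cpa3, Mcpt8, Fcer1a and Kit had a log2 change below 0 under all alternatives run. Leaving out 1 library at a time gave 0 to 129 calls over all genes (129 without anti-NK1.1 library 2), 2 to 4 of 8 members below every isotype library (9.80% to 19.8% of tested genes), 6 to 7 members with a change below 0, and a summed log2 ratio of -1.36 to -0.30. The log2 changes then ranged from -1.20 to 0.21 for Hdc, with 0.18 without anti-NK1.1 library 2, from -1.09 to 0.93 for Gata2, and from -3.35 to -0.91 for Kit.

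Without anti-NK1.1 libraries 1 and 3 together, chosen after seeing the data, 1 anti-NK1.1 library remains and is assumed to vary like the isotype group. There 5 of 8 members lay below every isotype library, as did 20.6% of tested genes, the summed log2 ratio was -1.52, and Prss34 had -2.34, Mcpt8 -1.32, Fcer1a -3.40, Cpa3 -1.69, Hdc -1.09, Gata2 -0.96 and Kit -0.23. With the length correction, also chosen after seeing the data, Cpa3 had -1.73 and Hdc 0.18. DESeq2 called 83 genes over all genes and 1 of the related lists. The cause of these shifts was not tested.

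Same-numbered libraries deviated from their group means with correlations of 0.05, 0.04 and -0.003. For differently numbered libraries the correlations ran from -0.05 to 0.02. All were near 0, and with 3 libraries per group they cannot settle whether the numbers pair the libraries. With replicate number as a block, edgeR called 0 genes and Gata2 had 0.30. Of 84 list medians under alternatives, 12 moved by more than the spread between replicates. Depth limits Ms4a2 and Gata2, which were under 100 counts in most libraries, and Kit and Cpa3, each under 100 in 3 of 6.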

Other observations

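Eosinophil genes were also counted, since eosinophils share granule proteins with basophils. Of 9, 7 were tested, 4 with a log2 change below 0 and 3 above, with a median of -0.91. EdgeR called none of them, as it called none over all genes. Prg2, the major basic protein, had 38, 450 and 124 counts in the anti-NK1.1 libraries and 1005, 1036 and 181 counts in the isotype libraries, so the groups overlapped. Ear6, an eosinophil ribonuclease gene whose reads could be shared with close paralogs, had 0, 0 and 2 counts in the anti-NK1.1 libraries and 65, 28 and 26 counts in the isotype libraries. Epx, the eosinophil peroxidase, had 52 counts in isotype library 2 and none in the other 5 libraries. Siglecf averaged 25.4 CPM in the anti-NK1.1 group and 24.9 CPM in the isotype group.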
